A study of Vitis vinifera with 24 samples.

Results

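Leaves kept at 4 ℃ were compared with untreated control leaves of the grapevine cultivar 'Thompson Seedless', with no trehalose on either side. Both groups held 3 biological replicates, so 6 of the 24 RNA-seq libraries of the series belong to the comparison, chosen by their treatment labels alone. The cuttings were self-rooted and raised in a greenhouse at 25 to 30 ℃ and 60 to 75% relative humidity. Cold leaves were sampled at 48 h; the labels give no sampling time for control leaves, no light regime, no batch and no statement on whether each replicate was a different plant, so the p-values cover the spread among these libraries only. The other libraries came from leaves given trehalose (a non-reducing sugar of 2 glucose units), NaCl, PEG6000 (a polymer that lowers water potential), or trehalose together with cold, NaCl or PEG6000, each with 3 replicates and sampled at 48 h.

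Low temperature stiffens plant membranes, slows enzymes and leaves chloroplasts with more absorbed light than cooled carbon metabolism can use. In plants studied in detail, of which Arabidopsis is the reference, chilling is followed by calcium signals and by induction of CBF/DREB1 transcription factors, which raise genes for protective proteins and compatible sugars, while many growth and photosynthesis genes are expressed at a lower level. None of these genes can be named here: the deposited table lists identifiers without names or functions, and 0 of them matched the reference table of grapevine genes. The response is therefore described through gene groups defined by level and change, with a few identifiers, and the label "leaf" could not be checked against marker genes.

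Expression was deposited as FPKM, fragments scaled to transcript length and to the mapped total of the library, for 35840 genes; sequencing depth is unknown. A gene was tested if 3 or more of the 24 libraries had it at 1 FPKM or above, which held for 20053 genes. They were tested on log2(FPKM + 1), a scale that understates the change of low genes. Replicates lay close together. Pearson correlations over these genes ranged from 0.996 to 0.997 within a group and from 0.848 to 0.849 between cold and control libraries, and the median SD between replicates was 0.066 log2 units in both groups. FPKM summed to between 626907 and 637648 in control and between 608911 and 614054 in cold libraries. In bulk leaf RNA, fewer cells of a type and less RNA per cell cannot be told apart.

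Most of the leaf transcriptome differed between cold and control leaves, and in FPKM as deposited there were many small decreases and fewer but larger increases. Of the 20053 genes, limma called 16744 (83.5%) at a Benjamini-Hochberg adjusted p below 0.05, 6295 (31.4%) higher and 10449 (52.1%) lower in the cold. This order depended on scaling: after median-of-ratios scaling, a method built to bring the median change close to 0 (0.01 here), 8429 were called higher and 8019 lower. Most of these changes were small: 3935 of the genes called higher and 7733 of those called lower changed less than 2-fold. The middle 50% of genes had log2 changes between -0.68 and 0.33, around a median of -0.20. The 2 directions differed in reach. The 95th and 99th percentiles of the log2 change were 1.902 and 3.648, whereas the 5th and 1st were -1.461 and -2.165. At least 2-fold, 2360 genes (11.8%) were called higher and 2716 (13.5%) lower. At least 4-fold it was 925 against 293 genes, and at least 16-fold 154 against 2. The surplus of higher genes at 4-fold and 16-fold was present under every scaling of the libraries tried. It was proportionally smaller when 0.1 in place of 1 was added to FPKM before the log (the pseudocount). Then 1626 genes were higher and 1027 lower at 4-fold, and 426 and 33 at 16-fold. At 2-fold the order again depended on scaling, with 2993 genes higher and 1830 lower after median-of-ratios scaling.

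Because most genes passed the test against no change, the change was also tested against 2-fold with limma's treat. By that test 1887 genes (9.41%) rose and 1838 (9.17%) fell by more than 2-fold at an adjusted p below 0.05. Their median log2 changes were 1.98 and -1.50. With median-of-ratios scaling 1162 genes fell beyond 2-fold, and with a pseudocount of 0.1 in place of 1 it was 2954. At the other end, the 95% confidence interval of the log2 change lay inside 2-fold in both directions for 13484 genes (67.2%) and within ±0.2 for 1311 (6.54%). The 3309 genes not called (16.5%) had intervals with a median half-width of 0.17 log2 units, so changes smaller than this were not resolved for about 50% of them. Every cold library lay above every control library for 6394 genes (31.9%) and below for 10489 (52.3%).

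**Figure D1:**
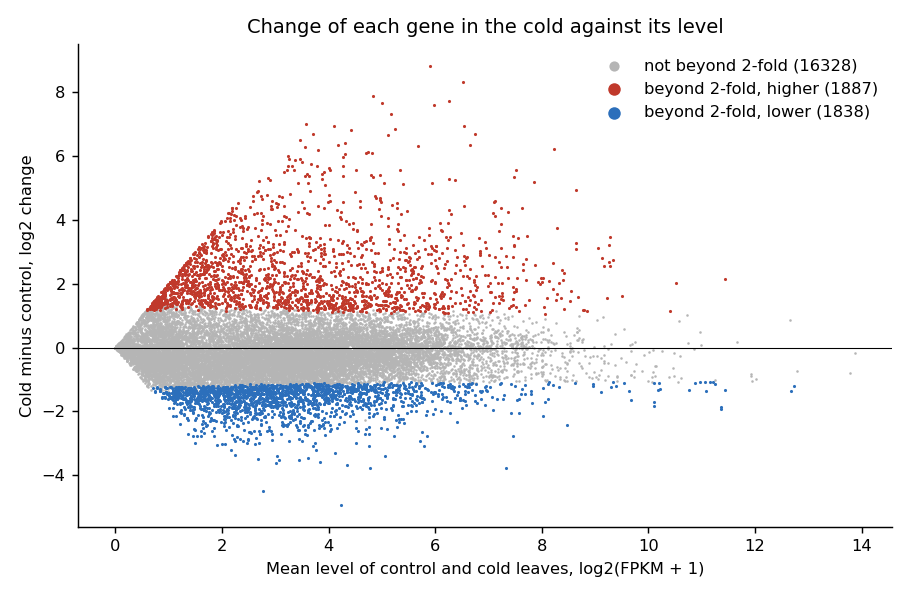
Each point is 1 of 20053 genes, with the mean of control and cold leaves on the horizontal axis and the cold minus control difference on the vertical axis, both from log2(FPKM + 1). The 1887 genes that rose beyond 2-fold (red) reach a log2 change of 8.82, while the 1838 that fell beyond 2-fold (blue) end at -4.93.

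A large part of the summed expression lay in other genes in cold leaves than in control leaves. Genes called at least 2-fold higher held 5.10, 5.14 and 5.17% of the FPKM sum in the 3 control libraries and 27.6, 27.6 and 27.7% in the 3 cold libraries. Genes called at least 2-fold lower went the other way, from 27.2, 27.2 and 27.1% in control to 10.8, 10.8 and 10.8% in cold libraries. These genes were chosen on the same 6 libraries, so the direction of these shares follows from the choice and only their size is informative. Libraries with trehalose did not enter the log2 change behind the choice, though they counted in the filter and in the shared estimate of spread. There the same 2360 genes held 4.97 ± 0.033% (SD, n = 3) in leaves given trehalose and 23.5 ± 0.10% in leaves given trehalose and cold, and the 2716 lowered genes 27.2 ± 0.11% and 13.3 ± 0.046%. The groups did not overlap in either case, and the exact permutation p was 0.1, two-sided, the smallest that 3 against 3 libraries allow. FPKM is divided by transcript length, so a share of FPKM is not a share of reads.

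**Figure D2:**
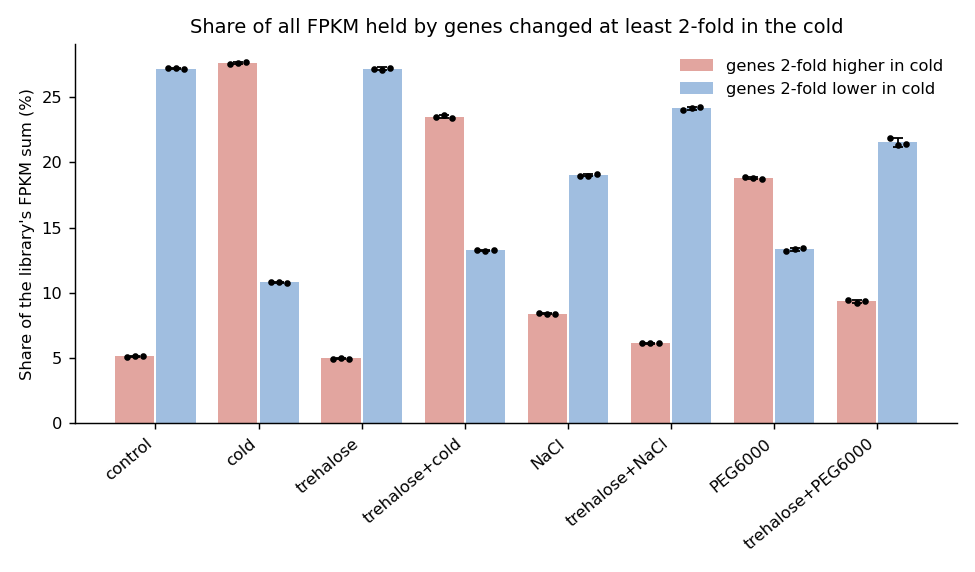
Bars give the mean share of the library's FPKM sum, in percent, held by the 2360 genes at least 2-fold higher (red) and the 2716 genes at least 2-fold lower (blue) in cold than in control leaves, for all 8 groups; points are the 3 libraries of a group and error bars their SD. Raised genes hold 27.6% in cold against 5.14% in control leaves, and stand at 23.5% with trehalose and cold and at 18.8% under PEG6000.

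Expression was also spread over more genes in the cold. The smallest number of genes that together held 50% of the FPKM sum was 417, 415 and 416 in the control libraries and 524, 528 and 528 in the cold libraries. The 100 most abundant genes of a library held 35.9 ± 0.056% of the sum in control and 28.8 ± 0.084% in cold leaves (SD, n = 3), whereas the 1000 most abundant held 61.2 ± 0.032% and 60.0 ± 0.072%. The genes between these ranks moved the other way, from 25.3 ± 0.064% in control to 31.2 ± 0.043% in cold leaves. None of these measures overlapped between the groups (exact permutation p = 0.1 for each, two-sided, the smallest possible). A wider spread was not particular to cold: the genes holding 50% averaged 741 with NaCl and 836 with PEG6000. The 100 most abundant genes held 28.5% with NaCl and 24.8% with PEG6000, and the genes between these ranks 25.8 and 28.0%. Of the 100 genes with the highest mean in control leaves, 61 were still among the highest 100 in the cold. The limma test called 83 of these 100 lower and 15 higher, 36 and 4 of them at least 2-fold, and their median log2 change was -0.88 against -0.20 for all genes. They were chosen for a high level in the same control libraries, a choice that favours falls, so these values are a description. With median-of-ratios scaling 73 were lower and 25 higher, 14 and 6 at least 2-fold, with a median of -0.60. The 39 newcomers to the top 100 had a median of 135 FPKM in control and 1119 FPKM in cold leaves, and 1 of them ranked 15271st in control. The genes they displaced went from a median of 820.4 to 490.4 FPKM. Gains and losses were carried by few genes: 144 genes made up 50% of the summed FPKM gains and 88 genes 50% of the summed losses.

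The gene with the largest gain in FPKM was Vitvi05g04015. It was at 1306, 1337 and 1316 FPKM in the control libraries and at 5852, 5783 and 5737 FPKM in the cold libraries. Cold libraries lay more than 4-fold above control in FPKM, with SDs of 15.6 FPKM in control and 57.9 FPKM in cold leaves (n = 3). The log2 change was 2.13 (SE 0.03, limma adjusted p = 2.24e-25), beyond 2-fold by treat (adjusted p = 8.51e-20). Its mean level over the other groups was 1103 FPKM with trehalose, 2471 with NaCl and 8056 with PEG6000, so that the highest level was not in the cold.

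PT_newGene_1537, a gene model of the second identifier series in the table, had the next largest gain. It stood at 4607, 5129 and 4791 FPKM in control and at 8971, 8386 and 8780 FPKM in cold libraries, without overlap. The log2 change was 0.85 (SE 0.10, limma adjusted p = 8.67e-08) and was not beyond 2-fold by treat; it was 1.13 with median-of-ratios scaling and 1.40 with quantile normalization. This gene was already among the most abundant in control leaves, so a change below 2-fold added 3870.3 FPKM. Leaves given trehalose and cold were at 5507, 5833 and 6056 FPKM, against 5852 ± 426 FPKM (SD, n = 3) with trehalose alone (log2 change -0.01, 95% confidence interval -0.23 to 0.20), and the 2 cold effects differed by -0.86 (SE 0.15, limma adjusted p = 6.46e-05).

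The largest losses fell on very abundant transcripts. Vitvi17g00320 was at 19058, 18397 and 18215 FPKM in control and at 10744, 10415 and 10605 FPKM in cold libraries. All cold libraries lay below all control libraries, and the mean dropped by 7969 FPKM, a log2 change of -0.81 (SE 0.03, limma adjusted p = 4.12e-17). The log2 change was -0.53 with median-of-ratios scaling and -0.32 with quantile normalization, both called. Vitvi10g01839 stood at 10326, 10115 and 10950 FPKM in control and at 4061, 4131 and 4125 FPKM in the cold. Its log2 change was -1.35 (SE 0.03, limma adjusted p = 2.19e-21), beyond 2-fold by treat (adjusted p = 1.16e-09). It was -1.07 with median-of-ratios scaling and -0.76, less than 2-fold, with quantile normalization. Both genes were lower than control in every stress library without trehalose too, at a mean of 12788 and 6222 FPKM with NaCl and 10053 and 4923 FPKM with PEG6000.

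Some abundant transcripts kept their FPKM. Vitvi19g00549 was at 1890, 1834 and 1860.2 FPKM in control and at 1829.6, 1824 and 1811 FPKM in cold libraries, with a log2 change of -0.03 (95% confidence interval -0.07 to 0.01, limma adjusted p = 0.135). Vitvi01g00714 was at 1991, 1947 and 1959.8 FPKM in control and at 2087, 2100.5 and 2073 FPKM in the cold, a log2 change of 0.09 that passed the test (95% confidence interval 0.05 to 0.12, adjusted p = 0.000134). Steadiness in FPKM is relative to the library total. With median-of-ratios scaling Vitvi19g00549 had a log2 change of 0.25 and with quantile normalization of 0.36, and Vitvi01g00714 of 0.37 and 0.47, all called and outside the ±0.2 used to choose them. Neither gene was steady in all treatments: with PEG6000 they were at 1049 ± 4.0 and 1443 ± 8.9 FPKM (SD, n = 3).

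**Figure D3:**
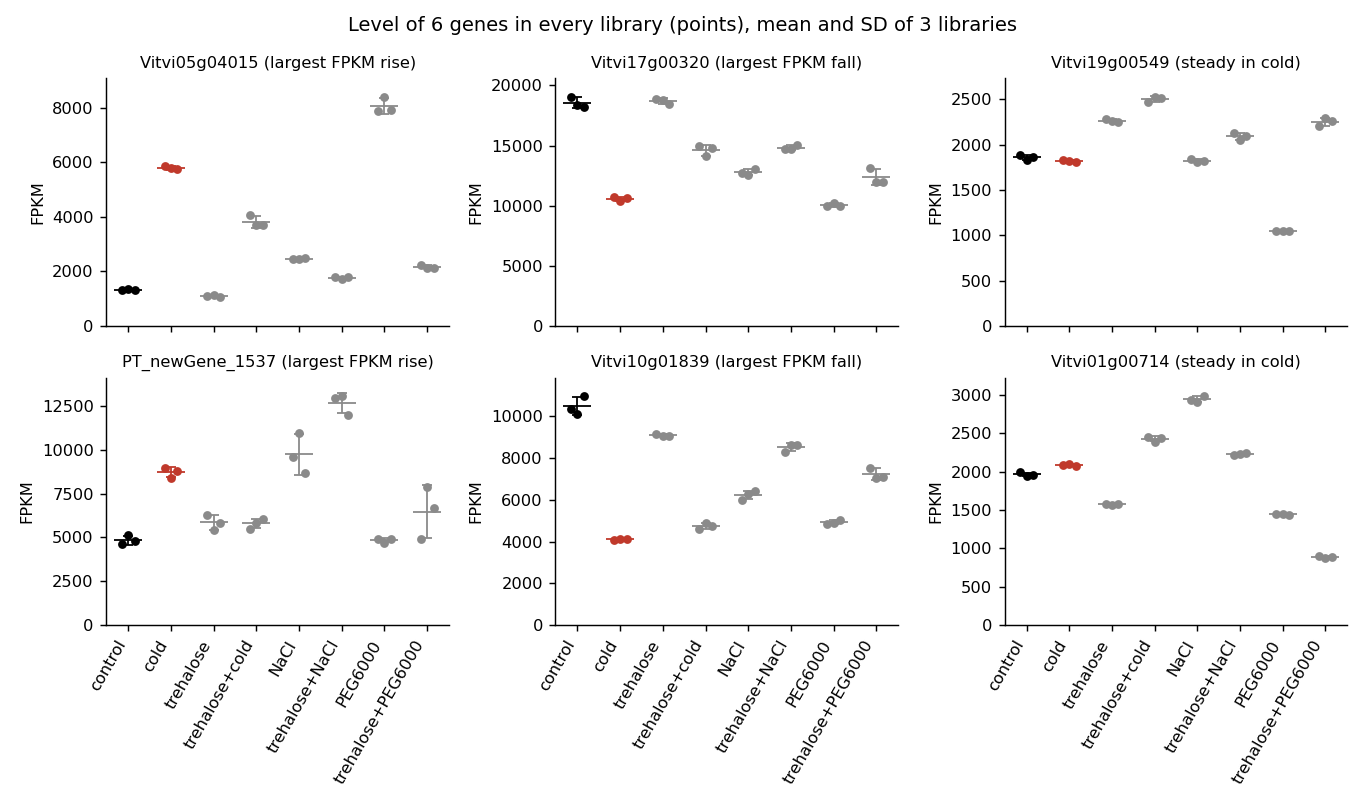
Points give FPKM in each of the 24 libraries for the 2 genes with the largest gain, the 2 with the largest loss and 2 abundant genes with nearly unchanged FPKM in the cold; horizontal bars and error bars are the mean and SD of 3 libraries, and axes start at 0. Cold libraries (red) lie apart from control libraries (black) for the first 4 genes, for example at 5737 to 5852 against 1306 to 1337 FPKM for Vitvi05g04015.

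Change in the cold varied with expression level. Genes were divided by their mean over all 24 libraries. Cold and control libraries counted toward this mean and toward the filter, so membership of a class depended partly on the change itself. Among the 7254 genes with a mean of 5 to 20 FPKM, 717 (9.88%) were called at least 2-fold higher and 1208 (16.7%) lower, with a median log2 change of -0.29. Among the 884 genes with a mean of 100 FPKM or more the order was inverse, with 161 (18.2%) higher and 121 (13.7%) lower. Genes of 1 to 5 FPKM resembled the former (619 higher and 788 lower of 5394), and genes of 20 to 100 FPKM were balanced (600 and 573 of 4548). Below 1 FPKM, 263 of 1973 genes were higher and 26 lower, a class in which the pseudocount leaves little room for a fall. With a pseudocount of 0.1 the counts were 562 and 453. Genes of this class were tested only if 3 or more libraries reached 1 FPKM, which could be the cold ones, so these counts are a description. The pattern depended on scaling. With median-of-ratios scaling 191 of the most abundant class were higher and 57 lower, and more genes were higher than lower in every class, while with quantile normalization it was 146 and 161.

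**Figure D4:**
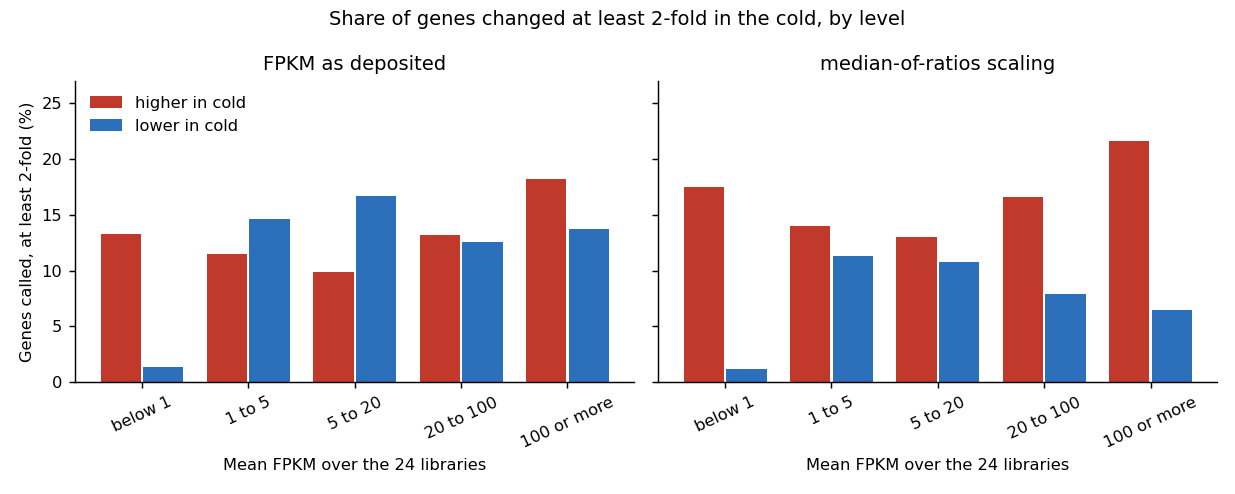
Bars give the percentage of genes called at least 2-fold higher (red) or lower (blue) in cold leaves, in 5 classes of mean FPKM over the 24 libraries, for FPKM as deposited (left) and after median-of-ratios scaling (right). As deposited, lowered genes outnumber raised ones between 1 and 20 FPKM and raised genes outnumber lowered ones at 100 FPKM or more (18.2 against 13.7%); after scaling, raised genes are the more frequent in all 5 classes.

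The number of genes detected barely moved, although the genes did. Between 16953 and 16985 genes were at 1 FPKM or more in control libraries and between 16817 and 16844 in cold libraries. Behind this, 1015 genes that all control libraries had below 1 FPKM reached 1 FPKM in all cold libraries, and 981 did the reverse. The genes gained had a median of 2.49 FPKM in cold leaves, and those lost a median of 1.87 FPKM in control leaves. Of the genes gained, 769 (75.8%) were called at least 2-fold higher, and of those lost 484 (49.3%) at least 2-fold lower. On log2(FPKM + 1) a gene near 1 FPKM has little room for such a call, so a missed call does not show a small change. PT_newGene_1157, at a mean of 1.044 FPKM in control and 0.111 FPKM in cold leaves, had a log2 change of -0.88. Genes gained that stood at 10 FPKM or more in all cold libraries numbered 119. Genes lost that stood there in all control libraries numbered 9. Both sets were chosen on the same 6 libraries, so these values are a description and no test of the sets is given.

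The response was spread over the whole set of identifiers. The 475 genes tested of the PT_newGene series had 71 members (14.9%) at least 2-fold higher and 66 (13.9%) lower. Across the 20 numbered Vitvi series, the share of genes called at least 2-fold higher was lowest in Vitvi15 (63 of 718 genes, 8.77%) and highest in Vitvi11 (123 of 879), and the share lower was lowest in Vitvi00 (25 of 283, 8.83%) and highest in Vitvi12 (142 of 889), against 11.8 and 13.5% of all genes. The median log2 change was below 0 in every series, from -0.31 in Vitvi15 to -0.02 in Vitvi00; with median-of-ratios scaling the median of all genes was 0.01.

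The same cold treatment was applied to leaves given trehalose, and those 6 libraries share none with cold or control leaves. Against leaves given trehalose alone, limma called 2302 genes (11.5%) at least 2-fold higher and 2348 (11.7%) lower. Of the 2360 genes raised at least 2-fold without trehalose, 2336 were called higher with it, where 30.3% of all genes were, and 1972 (83.6%) reached 2-fold again. Of the 2716 lowered genes, 2705 (99.6%) were called lower, against 52.6% of all genes, and 1789 (65.9%) reached 2-fold. Calls in the opposite direction numbered 6 and 3. The shares that reached 2-fold again depended on scaling. For the same genes they were 92.4% of the raised and 50.2% of the lowered ones with median-of-ratios scaling. Of all 20053 genes, 2832 were then at least 2-fold higher and 1685 lower with trehalose. With quantile normalization the shares were 85.8 and 58.7%, and 2464 and 2051 of all genes were at least 2-fold higher and lower. The log2 changes correlated across the 20053 genes with Pearson's r of 0.94 and Spearman's rho of 0.92, given as a description because genes are not independent replicates.

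A direct test of the difference between the 2 cold effects called 7137 genes (35.6%), of which 429 (2.14%) differed at least 2-fold. The genes below were chosen for the size of this difference. PT_newGene_2255 was at 0.233, 0.293 and 0.191 FPKM in control and at 3.20, 2.78 and 3.17 FPKM in cold libraries, and reached 40.7, 40.1 and 39.9 FPKM with trehalose and cold. PT_newGene_38 stood at 0.199 ± 0.0099 FPKM in control and 2.46 ± 0.31 FPKM in cold leaves (SD, n = 3), and at 23.4, 24.5 and 24.1 FPKM with trehalose and cold. Both genes rose in the cold with and without trehalose and stood at 220.3 ± 2.4 and 158 ± 2.6 FPKM under PEG6000. Vitvi04g00880 differed the other way. It stood at 23.5 ± 2.0 FPKM with trehalose alone, against 0.947 ± 0.29 in control and 0.150 ± 0.081 in cold leaves, and at 0.190 ± 0.17 with trehalose and cold, so that the larger fall with trehalose began from a higher level. Vitvi01g04438 was likewise highest with trehalose alone, at 24.3 ± 1.4 FPKM, against 2.05 ± 0.40 in control, 0.875 ± 0.33 in cold leaves and 0.644 ± 0.19 with trehalose and cold.

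**Figure D5:**
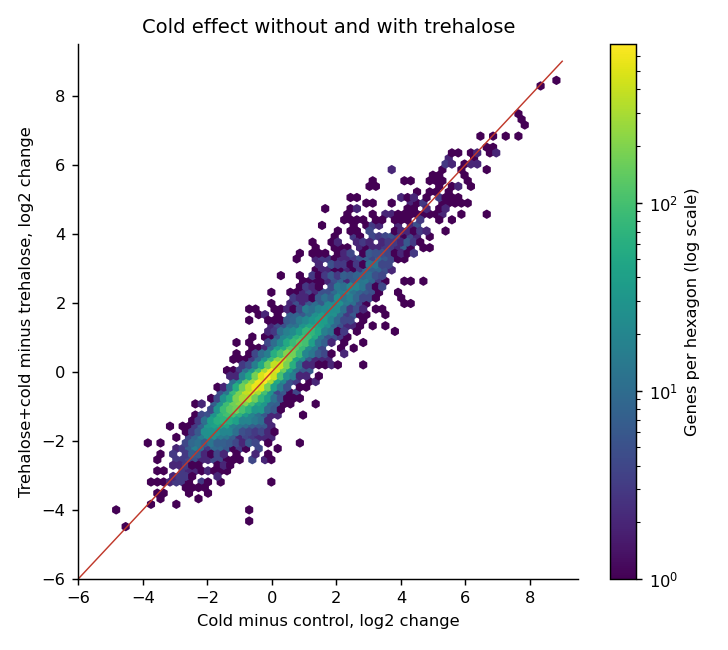
Hexagons count genes by their log2 change in the cold without trehalose (horizontal axis) and with trehalose on both sides (vertical axis), over 20053 genes on a log color scale; the red line marks equal changes. Genes lie along the line, with Pearson's r of 0.94.

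Genes that changed in the cold were also set beside their levels under the other stresses. The median FPKM over the 2360 raised genes was 2.33 ± 0.049 in control, 14.7 ± 0.099 in cold, 10.8 ± 0.15 in PEG6000 and 5.13 ± 0.014 in NaCl leaves (SD over 3 libraries). Over the 2716 lowered genes it was 11.0 ± 0.15 in control, 3.27 ± 0.0050 in cold, 7.09 ± 0.025 in PEG6000 and 10.1 ± 0.056 in NaCl leaves. Both groups of genes were thus nearer to control under NaCl than under PEG6000. In direct tests without the control libraries, cold leaves were higher than NaCl leaves for 2116 of the raised genes (89.7%, against 21.7% of all genes) and higher than PEG6000 leaves for 1641 (69.5%, against 26.0%). A further 601 raised genes (25.5%, against 57.8% of all genes) were higher in PEG6000 than in cold leaves. In NaCl leaves 137 (5.81%, against 63.8% of all genes) were higher than in cold leaves. Of the lowered genes, 2684 (98.8%, against 63.8% of all genes) were lower in cold than in NaCl leaves and 2205 (81.2%, against 57.8%) lower than in PEG6000 leaves. A further 259 lowered genes (9.54%, against 26.0% of all genes) were lower in PEG6000 than in cold leaves. In NaCl leaves 3 (0.110%, against 21.7% of all genes) were lower than in cold leaves. The genes were chosen on the same cold libraries, which raises the shares in the direction of the cold change and lowers the opposite ones. With median-of-ratios scaling the shares against PEG6000 were 74.2% for raised and 67.9% for lowered genes, where 8019 of all 20053 genes were higher and 8154 lower in cold than in PEG6000 leaves. The lowered genes that were lower in PEG6000 than in cold leaves then numbered 519 (19.1%). With quantile normalization they numbered 463 (17.0%), where 7684 of all 20053 genes were lower in PEG6000 than in cold leaves. Against NaCl, 60 (2.21%) were lower in NaCl than in cold leaves with median-of-ratios scaling. Of all 20053 genes, 8108 were lower in NaCl than in cold leaves with that scaling.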

How the data were processed

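RNA of 24 leaf libraries was sequenced by the authors, who deposited 1 table of FPKM values, with 1 column per library and replicates not pooled. StringTie 2.1.3b, HISAT2 2.1.0, fastp 0.20.0 and SAMtools 1.9 are named in the submitters' processing notes without their roles; genome build, annotation and strandedness were not given in the sources used here, so reads of near-identical or overlapping genes may have been divided between them. Identifiers comprise 35134 of the Vitvi and 706 of the PT_newGene series.

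Columns were assigned to samples by name, with 0 left unused. Low values were searched for steps of whole reads: the ratios between 2 control libraries, over 1911 genes under 0.2 FPKM in each, did not gather at steps (at most 1.99% in any 2% window), so no count test was run. Genes that reached 1 FPKM in 3 or more libraries were transformed to log2(FPKM + 1) and fitted with limma 3.58.1 in R 4.3.3 (1 mean for each of 8 groups, 16 residual degrees of freedom, eBayes with trend; treat with a log2 limit of 1). P-values are two-sided and Benjamini-Hochberg adjusted over 20053 genes; calls are at 0.05. The steps were tested on simulated data. Figures used Python 3.11.15 and matplotlib 3.10.9.

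Named genes were those that did not overlap between cold and control and gained or lost most FPKM (2 each), the 2 most abundant with a 95% interval within ±0.2, and the 2 with the largest difference of cold effects in each direction at a group mean of at least 5 FPKM. The comparison, its groups of genes and these rules were chosen with earlier results of these data known. Lists of pathway genes and cell type markers could not be matched to identifiers and were not used. Alternatives covered pseudocount, filter, scaling, libraries in the fit, variance model, weights, replicate block and leaving out libraries; scaling and pseudocount by level class and for the top 100 genes were added after seeing the data.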

Additional observations from a re-analysis of the deposited data

Results flagged for a closer look

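The cold effect differed between leaves with and without trehalose, by the direct limma test of the difference, for each of the 10 genes named in FPKM as deposited, 4 of which were chosen for that difference; with quantile normalization the call was lost for Vitvi17g00320, whose difference was 0 (adjusted p = 1). Given as the log2 cold effect with trehalose minus that without, the difference was -0.34 for Vitvi05g04015, -0.86 for PT_newGene_1537, 0.45 for Vitvi17g00320 and 0.41 for Vitvi10g01839, so that these 4 genes changed less with trehalose, Vitvi17g00320 not so with quantile normalization. These 4 were chosen for the largest FPKM changes without trehalose, a choice that favours a smaller change with it. The difference was 0.18 for Vitvi19g00549 and 0.54 for Vitvi01g00714, the genes chosen for nearly unchanged FPKM without trehalose. Among the genes chosen for it, the difference was 3.04 for PT_newGene_2255, 2.76 for PT_newGene_38, -3.62 for Vitvi04g00880 and -3.24 for Vitvi01g04438. The adjusted p was at most 6.46e-05 for all 10, and 35.6% of all genes were called by the same test.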

How the results depend on the processing

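Over 12 kinds of alternative, 282 of 307 recomputed counts of genes stayed within 1.5 times the reported count and 327 of 331 values of single genes kept direction and call. With a pseudocount of 0.1, 4288 genes were at least 2-fold lower in the cold, 1626 at least 4-fold higher and 1027 at least 4-fold lower, 2954 fell beyond 2-fold, and the median change was -0.25; with trehalose 3835 genes were 2-fold lower, and 1036 differed 2-fold between the cold effects. With a pseudocount of 0.01 the same values were 4519, 1771, 1301, 3137, -0.26, 3992 and 1064. Without a filter the median was -0.024. A filter at a mean of 5 FPKM, with fewer genes tested, left 4149 genes higher in the cold, 1478 at least 2-fold, 1396 higher and 1421 lower 2-fold with trehalose, 248 that differed 2-fold, 2806 higher and 8478 lower than in NaCl, and 3421 higher than in PEG6000. With median-of-ratios scaling, which shifts all genes together, 191 genes were at least 4-fold lower, 1162 fell beyond 2-fold, the median was 0.011, and cold was higher for 8108 and lower for 7840 genes against NaCl and higher for 8019 against PEG6000. The median was -0.16 with a common sum and -0.14 with quantile normalization. Vitvi19g00549 changed sign with a common sum (0.0165), median-of-ratios scaling (0.25) and quantile normalization (0.36). The difference of Vitvi17g00320 was 0 with quantile normalization. That method gives every library the same value at a given rank, so it cannot show a change at an unchanged rank. The log2 change of this gene in the cold without trehalose was -0.32 with that method, so its rank was not the same in cold and control libraries. A difference of 0 means that the change with trehalose had the same size.

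Genes called at least 2-fold higher or lower under another scaling form other sets. Raised genes held 5.38% of the FPKM in control and 28.1% in cold leaves with a common sum, 7.75 and 32.6% after median-of-ratios scaling, and 5.57 and 27.3% after quantile normalization. Lowered genes held 25.1 and 9.79%, 13.9 and 4.50%, and 20.4 and 7.68%. Quantile normalization sets the genes holding 50% of FPKM to 584 in every library by construction. Leaving out single libraries gave 5.07 to 5.24% and 27.5 to 27.8% for raised genes, 26.7 to 27.4% and 10.6 to 10.9% for lowered genes, 2344 to 2370 genes 2-fold higher and 2709 to 2747 lower. The replicate block gave 2359 genes 2-fold higher and 2717 lower. Deviations of same-numbered cold and control libraries correlated at 0.015, 0.013 and 0.022, too low to pair them, although each library correlated best with its own number, a hint from the data only. Unknown depth limits what can be said of genes near 1 FPKM.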
